A study of Arabidopsis thaliana with 5 samples.

Results

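The CIN-type TCP genes TCP2 (AT4G18390), TCP3 (AT1G53230), TCP4 (AT3G15030), TCP10 (AT2G31070) and TCP24 (AT1G30210) were followed in sorted leaf epidermal cells of Arabidopsis thaliana. They were chosen by gene identifier as the 5 CIN-type members whose mRNA carries a target site of the microRNA miR319, and all 5 are among the 24200 genes of the deposited table. RNA was sequenced from 2 libraries of hdl seedlings, which carry the hdl-1 allele of the gene HOMEODOMAIN-LIKE, and from 3 libraries of wild-type (WT) seedlings. Plants of both genotypes were 9 days post germination, grew under long days and carried the AtML1pro:RCI2A-mCherry reporter, a red membrane marker driven by a promoter active in the epidermis. All 5 samples had 2 days of stratification. Protoplasts were sorted for the reporter, about 20000 cells per sample. The labels name 1 mutant allele and do not say whether libraries of a genotype came from separate plantings, and each p-value therefore reflects the spread among these 5 libraries alone, which could be technical.

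TCP proteins are plant transcription factors that bind DNA through a basic helix-loop-helix type TCP domain. CIN-type members move leaf cells from proliferation to expansion and differentiation, and plants that lose several of them keep dividing at the leaf margin and form crinkled leaves. The microRNA miR319 cuts the mRNAs of these 5 genes and so sets where in the young leaf they act, while the CIN-type genes TCP5, TCP13 and TCP17 escape it.

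The miR319 site of these 5 genes was read from the TAIR10.1 genome with its NCBI annotation. The mature microRNAs are shown first, because every comparison of the sites is made against them. Their seed, bases 2 to 8, is in capitals, and it is the same in all 3 precursor genes.
miR319a (chr4:12353109-12353129, plus strand): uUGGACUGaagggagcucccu
miR319b (chr5:16660469-16660489, minus strand): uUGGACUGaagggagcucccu
miR319c (chr2:17029870-17029890, plus strand): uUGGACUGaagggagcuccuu

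The best-matching window of each gene's longest annotated transcript follows, written 5′ to 3′ as DNA, with capitals for bases that pair with miR319a by Watson-Crick rules. It lay inside the coding sequence in all 5 genes.
TCP2 (chr4:10163402-10163422, minus strand): caGGgGgaCCCTTCAGTCCAA
TCP24 (chr1:10628989-10629009, minus strand): taGGgGgaCCCTTCAGTCCAA
TCP10 (chr2:13221210-13221230, minus strand): AaGGgGtaCCCTTCAGTCCAg
TCP3 (chr1:19850522-19850542, minus strand): gaGGgGtcCCCTTCAGTCCAt
TCP4 (chr3:5063300-5063320, plus strand): gaGGgGtcCCCTTCAGTCCAg

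Each site had 5 or 6 mismatches to the 21 bases of miR319a, and 0 of them faced bases 2 to 8. A G facing a U was counted as a mismatch. Over all 27440 protein-coding genes scanned, 45 (0.164%) had a window with 5 or fewer mismatches and 319 (1.163%) one with 6 or fewer. On this count MYB33, MYB65 and MYB104 matched better than the TCP genes, with 3. With a G facing a U not counted, TCP4 and TCP10 had 2 mismatches, TCP3 had 3, TCP2 and TCP24 had 4, and these MYB genes still had 3. Bases 14, 15, 17 and 20 of the microRNA were mismatched in all 5 sites, base 17 each time as a U facing a G. The run of 12 bases that pairs with bases 2 to 13, CCCTTCAGTCCA, was present on the sense strand of the longest transcript of 7 of these genes, or 0.0255%, and 5 of the 7 are these TCP genes. Sites of TCP2 and TCP24 were identical at 20 of 21 bases, as were those of TCP3 and TCP4. In TCP5, TCP13 and TCP17 the best window had 8 or 9 mismatches, and 9250 of the genes scanned had a window with 8 or fewer. A window is a match of letters, and cutting was not measured.

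Dividing each library's values by the value of 1 read gave 18316092 and 19741801 reads in hdl libraries 1 and 2, against 15418154 to 22838239 in WT. The values are normalized counts, that is read counts divided by a size factor per library, and they summed to 24709399 and 24387425 in hdl, against 19046245 to 20079270 in WT. Differences therefore depend on whether libraries are scaled by size factors, as deposited, or to equal totals. Without hdl replicate 1, limma called 0 of 20217 genes (4006 at an unadjusted p under 0.05), with the spread of the remaining hdl library taken from WT.

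All 5 genes were measured well above the filter, and TCP10 was the most abundant of them. Per kilobase of its longest transcript, TCP10 stood at 455 and 461 normalized counts per kb in hdl, against 540 to 561 in WT. In hdl it was followed by TCP4 with a mean of 234 normalized counts per kb, TCP3 with 205, TCP2 with 201 and TCP24 with 153. In WT the order was TCP24 with 237 normalized counts per kb, TCP3 with 227, TCP4 with 185 and TCP2 with 162. So TCP24 held the second place in WT and the last in hdl. TCP10 was apart from the others in both genotypes. Ranges of neighbours overlapped for TCP4 with TCP3 and TCP3 with TCP2 in hdl, and for TCP24 with TCP3 and TCP4 with TCP2 in WT, so those places do not differ beyond the spread. Among the 23 TCP genes of the table, TCP10 ranked 4 in hdl and 2 in WT, and TCP9, a class I gene, ranked 1 in both at 2963 and 3406 normalized counts per kb.

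**Figure D1:**
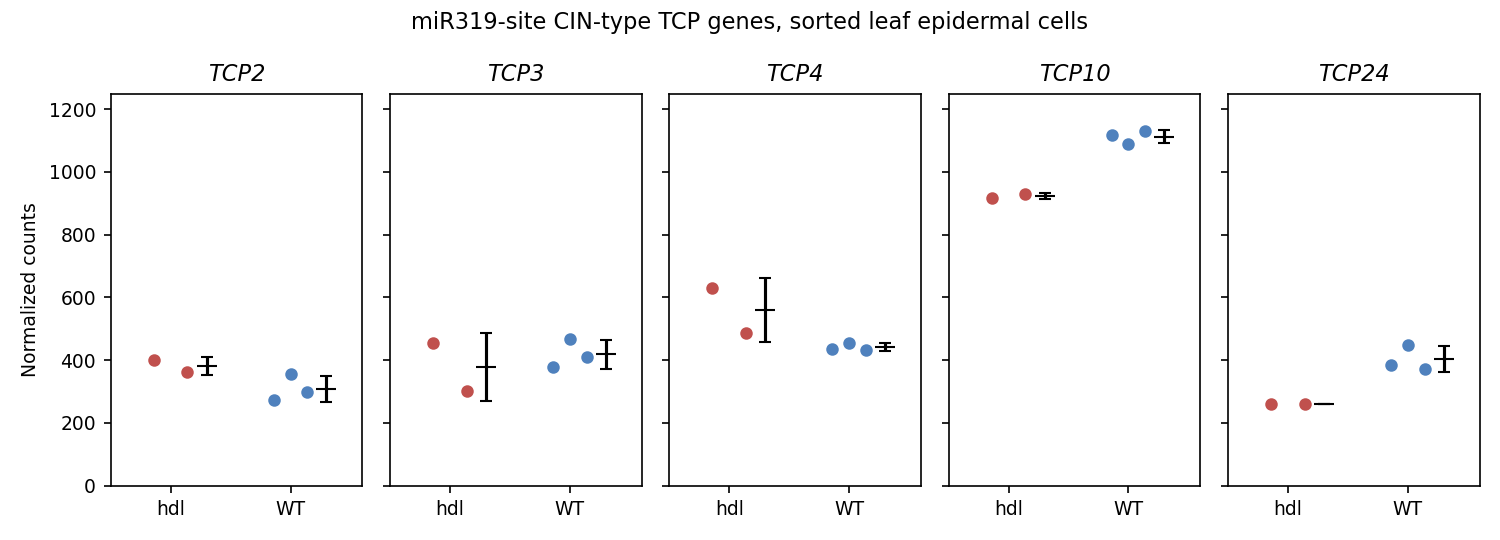
Normalized counts of the 5 genes in each library (y axis, from 0), with hdl at the left and WT at the right of each panel; points are libraries and bars are the mean ± SD (n = 2 and 3). Both hdl points lie below all WT points for TCP10 and TCP24 and above them for TCP2 and TCP4, and the groups overlap for TCP3.

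The comparison of hdl with WT asks whether these leaf maturation genes differ between sorted cells of the genotypes. None of the 5 passed the test. As deposited, TCP24 and TCP10 had lower values in both hdl libraries than in WT, TCP2 and TCP4 had higher values, and TCP3 overlapped. With equal library totals TCP2 and TCP4 were near 0, at log2 changes of -0.011 and 0.0067. By limma on log2(value + 1), with adjustment over 20391 genes and a call at an adjusted p under 0.05, 0 of the 5 genes were called. Over all genes tested 12.7% were called, with 8.21% higher and 4.5% lower. At an unadjusted p under 0.05 the count was 1 of 5, TCP24, while at least 6380 of the 20391 genes tested were under it. On recovered reads, edgeR called 0 of the 5, against 8.07% of all genes higher and 4.13% lower, and DESeq2 called 1 of the 5 lower, TCP24, against 9.41% of all genes. In 4 of the 5 genes the hdl and WT libraries did not overlap, but 53.6% of all genes tested also did not, with 26.7% above and 26.9% below WT, so this is not a result about the 5. The median log2 change of the 5 was -0.17, against -0.05 over all genes tested. In such pooled cells, fewer cells of a type and less RNA per cell cannot be told apart.

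TCP24 showed the largest difference of the 5 on the log2 scale. TCP24, which acts with the other members in leaf growth, lies on chromosome 1 from 10627185 to 10630630 on the minus strand. It had 260 and 261 normalized counts in hdl libraries 1 and 2, against 386, 450 and 372 in WT libraries 1, 2 and 3. Both hdl values lay below every WT value. The means were 260.5 ± 0.20 normalized counts in hdl and 403 ± 41.4 in WT (SD, n = 2 and 3), a log2 change of -0.62 ± 0.19 (SE) with a 95% interval from -1.07 to -0.17 and an adjusted p of 0.077. It therefore did not pass. The hdl values rest on 193 and 211 reads, whose mean counting error is 7.04%, while their observed coefficient of variation was 0.077%. It was called lower in 3 of its 15 alternatives, whose adjusted p ran from 0.0257 to 0.281. These were DESeq2 (adjusted p = 0.046), the limma fit without WT replicate 2 (-0.54, adjusted p = 0.0442, where 11.4% of all genes were called lower) and equal library totals (-0.94, adjusted p = 0.0257, where 12.5% were called lower and 4.86% higher).

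TCP10, on chromosome 2 from 13220478 to 13222642 on the minus strand, was the most abundant of the 5. It had 917 and 929 normalized counts in hdl, against 1118, 1089 and 1131 in WT. The hdl libraries lay below all WT libraries. Its means were 923 ± 8.20 normalized counts in hdl and 1113 ± 21.5 in WT (SD, n = 2 and 3), or 83.0% of WT. The log2 change was -0.27 ± 0.13 (SE; 95% interval from -0.58 to 0.04; adjusted p = 0.208) and did not pass. The coefficient of variation in WT was 1.93%, against 3.08% expected from counting alone, and 98.2% of 3156 genes with a mean within 1.5 times that of TCP10 varied more. With equal totals TCP10 passed (-0.59, adjusted p = 0.0341), the only one of its 15 alternatives that did.

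TCP4, the best-studied member, which activates genes of differentiation and hormone synthesis, lies on chromosome 3 from 5061681 to 5064152 on the plus strand. It had 631 and 488 normalized counts in hdl, against 437, 456 and 432 in WT. Both hdl libraries were above WT, with hdl replicate 1 far above hdl replicate 2. Means were 560 ± 101 normalized counts in hdl and 442 ± 12.7 in WT (SD, n = 2 and 3), a log2 change of 0.33 ± 0.18 (SE; 95% interval from -0.11 to 0.77; adjusted p = 0.257). Without hdl replicate 1 the log2 change was 0.14 and without hdl replicate 2 it was 0.51, so the size rests on the hdl library chosen.

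TCP2, on chromosome 4 from 10162922 to 10165583 on the minus strand, was the least abundant per length in WT. It had 401 and 361 normalized counts in hdl, against 272, 355 and 298 in WT. The groups did not overlap, but hdl replicate 2 and WT replicate 2 were close. Means were 381 ± 28.3 normalized counts in hdl and 308 ± 42.6 in WT (SD, n = 2 and 3), and the log2 change of 0.31 ± 0.20 (SE; 95% interval from -0.18 to 0.80; adjusted p = 0.327) did not pass.

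TCP3, on chromosome 1 from 19849788 to 19851725 on the minus strand, had overlapping groups. It had 455 and 301 normalized counts in hdl, against 378, 469 and 409 in WT. The hdl libraries were the second highest and the lowest of the 5. Means were 378 ± 108 normalized counts in hdl and 418 ± 46.4 in WT (SD, n = 2 and 3), with a log2 change of -0.17 ± 0.24 (SE; 95% interval from -0.74 to 0.40; adjusted p = 0.651). Without hdl replicate 2 the log2 change was 0.13 and without hdl replicate 1 it was -0.47, so the direction rests on single libraries.

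TCP3 is the only one of the 5 genes with a gene annotated on the opposite strand, the long non-coding RNA gene AT1G53233, which overlaps it over 1525 bases. That gene, named after its values were seen, was at 0 in hdl replicate 1 and at 299 normalized counts in hdl replicate 2, against 387, 460 and 416 in WT. In the 4 libraries where it was above 0, its value was 0.98 to 1.03 times that of TCP3 in the same library. TCP3 itself was at 455 normalized counts in the library where the opposite gene was at 0. Whether counting used strand is not stated in the labels, so reads of TCP3 and of its opposite gene cannot be told apart, and the part of this in the TCP3 values was not tested.

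**Figure D2:**
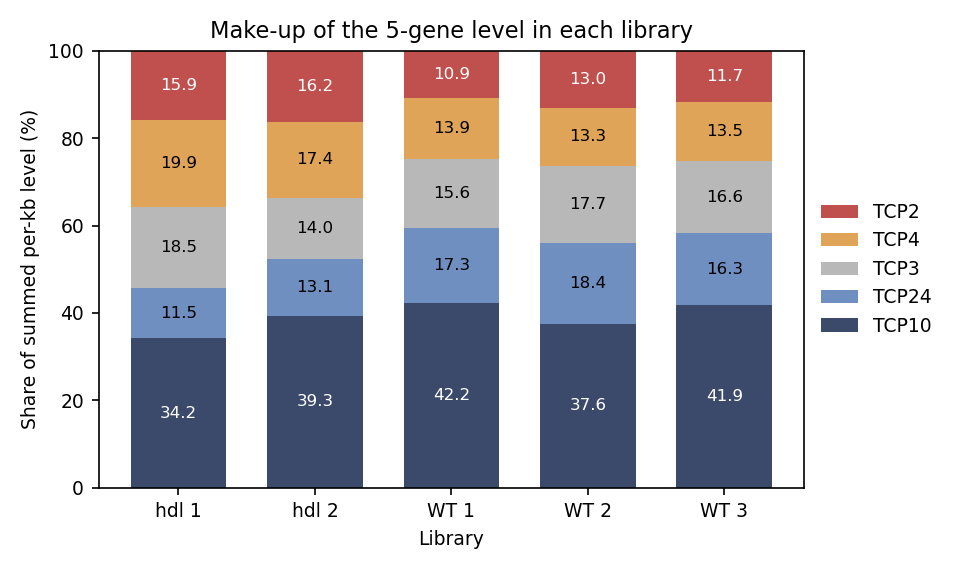
Share of each gene in the summed per-kb level of the 5 genes (y axis, percent) in each library, hdl at the left and WT at the right. TCP2 and TCP4 take larger shares and TCP24 a smaller one in both hdl libraries than in all WT libraries.

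Ratios between members within a library do not depend on how libraries are scaled. TCP24 per TCP2, in normalized counts, was 0.650 and 0.723 in hdl, against 1.42, 1.27 and 1.25 in WT. TCP10 per TCP4 was 1.45 and 1.90 in hdl, against 2.56, 2.39 and 2.62 in WT. These ratios are not corrected for transcript length. In both the genotypes were apart. That follows from the single genes, since TCP24 and TCP10 lay below and TCP2 and TCP4 above every WT value, and adds no support. TCP4 per TCP2 overlapped, at 1.58 and 1.35 in hdl against 1.61, 1.29 and 1.45 in WT. As shares of the summed per-kb level, TCP24 took 11.5% and 13.1% in hdl against 16.3 to 18.4% in WT, and TCP2 took 15.9% and 16.2% against 10.9 to 13.02%. TCP4 took 19.9% and 17.4% in hdl against 13.3 to 13.9% in WT. The sum itself overlapped, at 1330 and 1172 normalized counts per kb in hdl against 1312 to 1436 in WT. TCP2 and TCP24, whose miR319 sites are identical at 20 of 21 bases, had log2 changes of opposite sign as deposited. The ratios were chosen after the values were seen and are given with no test.

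Scaling moved all 5 values alike. With equal totals the median log2 change of all genes went to -0.37, against -0.05 as deposited. Relative to that median the members' log2 changes were 0.36 with either scaling for TCP2, 0.38 for TCP4, -0.12 for TCP3, -0.22 for TCP10 and -0.57 for TCP24. With TMM scaling TCP2 stood at 0.31 and TCP4 at 0.32, close to the log2 changes as deposited, so of these scalings only equal totals brought them near 0.

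**Figure D3:**
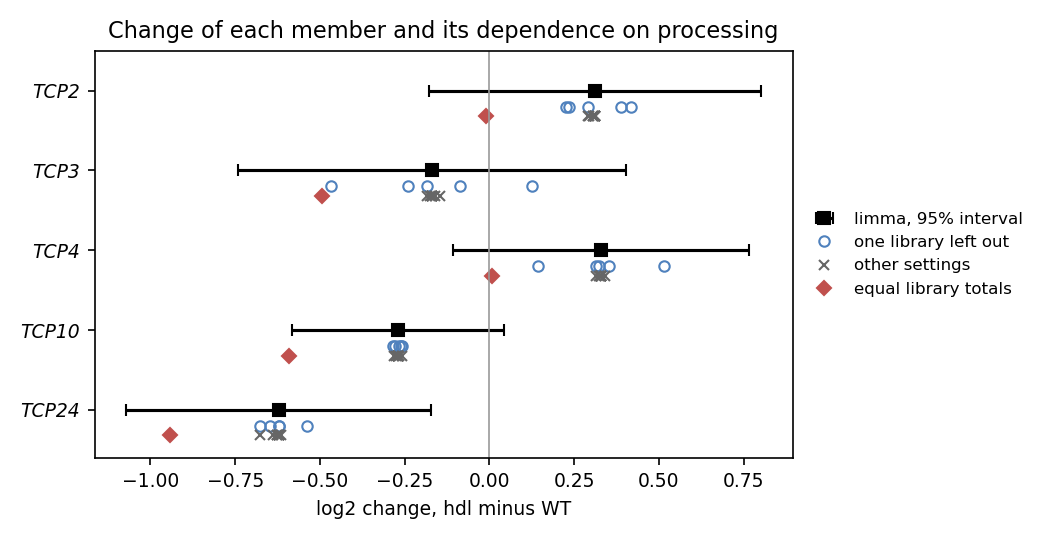
log2 change of each gene, hdl minus WT (x axis), with black squares for limma and its 95% interval, open circles for fits that leave out 1 library, crosses for other settings and red diamonds for equal library totals. The interval leaves out 0 for TCP24, and equal totals shift all 5 genes to the left.

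The patterns over the 5 libraries were also set side by side. The measure was the root mean square difference of log2(value + 1), each gene centred on its own mean over the 5 libraries, where a smaller value means a closer pattern. The closest pair of members was TCP2 and TCP4 at 0.124, then TCP10 and TCP24 at 0.204, and the farthest was TCP4 and TCP24 at 0.485. Of the candidates, 424 of 16925 other genes with a mean of at least 50 lay as near to TCP4 as TCP2 did, or nearer. The nearest gene to TCP2 was OXP1, encoding 5-oxoprolinase, at 0.027. For TCP10 it was GG1, a G protein gamma subunit gene, at 0.016, and for TCP24 it was FUM1, encoding fumarase, at 0.012. AT4G10550 was nearest to TCP3 at 0.031 and AT4G22740 to TCP4 at 0.038. FUM1, like TCP24, had lower values in both hdl libraries, 505 and 497 normalized counts against 740, 876 and 716 in WT, and did not pass (log2 change -0.63, adjusted p = 0.0546).

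Shared reads could blur such close relatives. The longest identical stretch between the transcripts of any pair was 38 bases, for TCP3 and TCP4, and the shortest of the 10 pairs was 14 bases. The labels give no read length.

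The CIN-type genes without a miR319 site were next compared. TCP5, TCP13 and TCP17 act in the same leaf maturation program. None of the 3 was called by limma, edgeR or DESeq2, and their median log2 change was 0.41. Over all genes limma called 12.7%, edgeR 8.07% higher and 4.13% lower, and DESeq2 11.7% higher and 9.41% lower. At an unadjusted limma p under 0.05 was 1 of the 3, against at least 6380 of the 20391 genes tested. TCP13 had 762 and 725 normalized counts in hdl, against 665, 407 and 647 in WT (log2 change 0.41 ± 0.25, SE; adjusted p = 0.301). TCP5 had 637 and 569 normalized counts in hdl, against 434, 457 and 454 in WT (0.43 ± 0.16, SE; adjusted p = 0.125). Both genes had every hdl library above every WT library, as did 26.7% of all genes tested. TCP5 passed without WT replicate 2 (adjusted p = 0.0494, where 17.8% of all genes were called higher), while TCP13 then stood at 0.18. With equal totals TCP5 stood at 0.10 and TCP13 at 0.086. TCP17 overlapped, at 83.6 and 56.8 in hdl against 81.7, 43.6 and 69.2 in WT.

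Of the whole TCP family, 18 of 23 genes in the table passed the filter and 1 was called, against 12.7% of all genes. The called gene, TCP23 of class I, rose in hdl. It had 406 and 346 normalized counts in hdl, against 174, 132 and 150 in WT, a log2 change of 1.31 ± 0.23 (SE; adjusted p = 0.021). Both hdl libraries were above every WT library. The call was lost in 4 of 5 fits that left out 1 library (adjusted p from 0.0537 to 0.145 in those) and held without WT replicate 2. The 10 class I genes tested had a median log2 change of -0.04. CYC/TB1-type genes were all under the filter (TCP1, TCP12 and TCP18), as were the class I genes TCP6 and TCP11, with at most 14.2 normalized counts in any library.

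**Figure D4:**
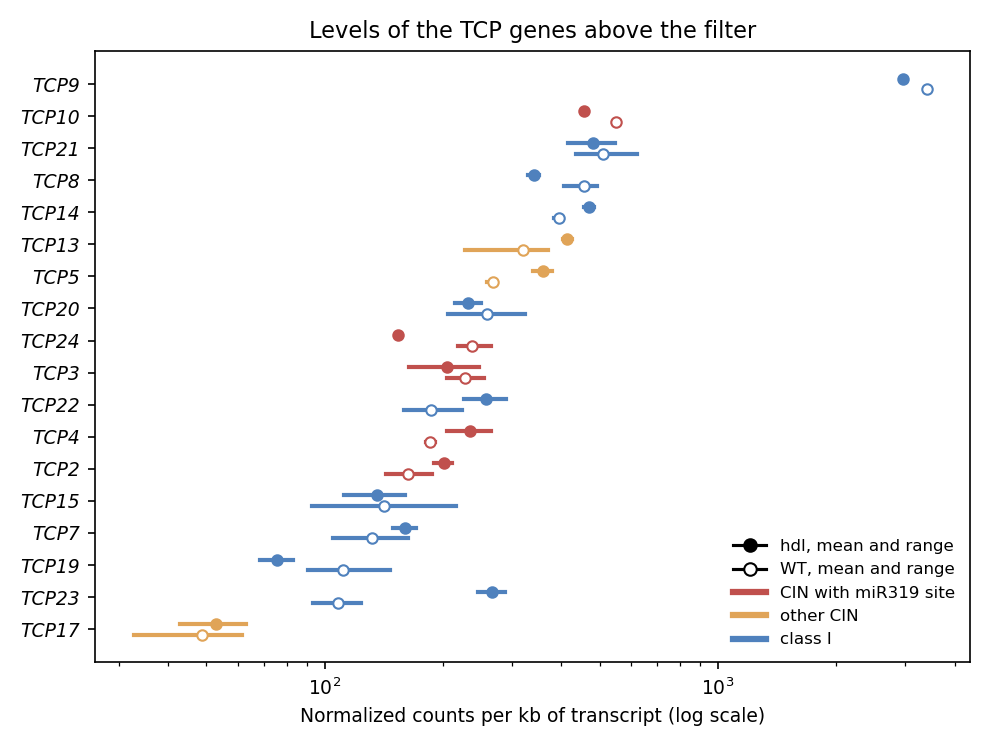
Normalized counts per kb (x axis, log scale) of the 18 TCP genes above the filter, with filled points for hdl above open points for WT and lines for the range over libraries. TCP10 is the most abundant of the miR319-site genes and TCP23 the gene with the widest gap between genotypes.

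Upstream and partner genes were taken from lists that stand apart from the 5. The precursor genes MIR319A, MIR319B and MIR319C were not analysed here, so nothing is said of the microRNA's own level. The repressor list holds TIE1 and its relatives, proteins that bind CIN-type TCPs, and the TOPLESS corepressors that TIE1 recruits. Of its 9 genes 5 were tested and 0 were called by limma, edgeR or DESeq2, with a median log2 change of 0.18. The shares over all genes were 12.7% by limma, 8.07% higher and 4.13% lower by edgeR, and 11.7% higher and 9.41% lower by DESeq2. At an unadjusted limma p under 0.05 were 3 of the 5, against at least 6380 of the 20391 genes tested. TPL had 3768 and 3648 normalized counts in hdl, against 3220, 3222 and 3382 in WT (log2 change 0.18 ± 0.12, SE; adjusted p = 0.341). TPR4 had 2610 and 2119 normalized counts in hdl, against 1832, 1472 and 1900 in WT (0.45 ± 0.18, SE; adjusted p = 0.141). Both genes had every hdl library above every WT library, as did 26.7% of all genes tested, and TPL turned to -0.14 with equal totals. TPR3, named after its values were seen, had 1137 and 973 normalized counts in hdl, against 714, 556 and 839 in WT. Its limma log2 change was 0.60 ± 0.21 (SE, adjusted p = 0.114), and 0.28 with equal totals. TPR1, also named after its values were seen, ran the other way, at 1010 and 887 normalized counts in hdl against 1372, 1134 and 1596 in WT (-0.52 ± 0.19, SE, adjusted p = 0.119). TPR1 passed with equal totals (-0.84, adjusted p = 0.0363) and without WT replicate 2 (-0.64, adjusted p = 0.0116). TIE1 and TIE4 were under the filter, with at most 8.65 normalized counts. TPL, TPR3 and TPR4 each overlap an opposite-strand gene.

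Of the genes that CIN-type TCPs are known to activate, 8 of 11 listed were tested, 2 rose and 0 fell, against 8.21% of all genes higher and 4.5% lower. At an unadjusted limma p under 0.05 were 3 of the 8, against at least 6380 of the 20391 genes tested. By edgeR 2 targets were higher and 0 lower, against 8.07% of all genes higher and 4.13% lower. By DESeq2 2 targets were higher and 1 lower, against 11.7% of all genes higher and 9.41% lower. The median log2 change of the 8 was 0.84, against -0.05 over all genes. IAA3, an auxin response repressor gene reported as a target of TCP3, had 1734.9 and 1576 normalized counts in hdl, against 475, 382 and 412 in WT. It rose, with every hdl library above WT and a log2 change of 1.97 ± 0.16 (SE; adjusted p = 0.00435). Without hdl replicate 1 the adjusted p was 0.0729, and IAA3 overlaps an opposite-strand gene. YUC5, an auxin synthesis gene that TCP4 activates, had 146 and 174 normalized counts in hdl, against 33.9, 58.9 and 20.8 in WT. It also rose, by 2.16 ± 0.51 (SE; adjusted p = 0.0426), a call close to the threshold that held in 8 of its 15 alternatives. The call was lost without hdl replicate 1 or 2 and without WT replicate 1 or 3 (adjusted p from 0.105 to 0.168).

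Other targets did not pass. LOX2, the jasmonate synthesis enzyme gene that TCP4 activates, was chosen after its values were seen: it had 2857 and 2826 normalized counts in hdl, against 1765, 425 and 1750 in WT. WT replicate 2 was far below the other WT libraries, and without it the log2 change of 0.69 passed (adjusted p = 0.00166, where 17.8% of all genes were called higher), against 1.37 and an adjusted p of 0.186 with all libraries. AS1, a leaf MYB gene reported as a TCP3 target, ran the other way, at 608 and 495 normalized counts in hdl against 745, 983 and 849 in WT (adjusted p = 0.0753; 0.0396 with DESeq2). By limma AS1 also passed with equal totals (-0.96, adjusted p = 0.0263, where 12.5% of all genes were called lower). Without WT replicate 2 it passed as well (-0.53, adjusted p = 0.0421, where 11.4% were called lower). AS1 was likewise named after its values were seen and overlaps an opposite-strand gene. The remaining 4 targets tested had log2 changes between 0.32 and 0.98 and did not pass.

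The boundary and class I KNOX genes, which CIN-type TCPs hold back, had low values, with at most 94.8 normalized counts in any library. CUC1, CUC2, CUC3 and KNAT2 were under the filter, with at most 6.18 normalized counts in hdl and 43.6 in WT. STM, a meristem gene, had 10.8 and 0 normalized counts in hdl, against 36.1, 94.8 and 18.3 in WT, a log2 change of -3.58 with a 95% interval from -6.66 to -0.49 (adjusted p = 0.117; 0.0535 with DESeq2). KNAT6 had 76.9 and 30.9 normalized counts in hdl, against 13.8, 38.4 and 25.9 in WT (adjusted p = 0.344). For KNAT1 they were 8.09 and 28.4 in hdl, against 5.30, 39.7 and 11.7 in WT (limma log2 change 0.14, adjusted p = 0.938). Of the 3 genes tested 0 were called by limma, 0 by edgeR and 0 by DESeq2. Over all genes limma called 12.7%, edgeR 8.07% higher and 4.13% lower, and DESeq2 11.7% higher and 9.41% lower. STM was at an unadjusted limma p under 0.05, as were at least 6380 of the 20391 genes tested.

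Class II KNOX genes act beside CIN-type TCPs in keeping leaves simple. KNAT3 rose in hdl, with 1711 and 1613 normalized counts against 987, 898 and 897 in WT, a log2 change of 0.84 ± 0.13 (SE; adjusted p = 0.0158). Every hdl library was above WT. The call was lost without either hdl library (adjusted p = 0.145 without replicate 1 and 0.0689 without replicate 2) and without WT replicate 3 (0.075). KNAT4 and KNAT5 had log2 changes of -0.31 and -0.26 and did not pass. So 1 of the 3 was called, against 12.7% of all genes. With equal totals KNAT3 stood at 0.52 (adjusted p = 0.0443 by limma) and KNAT5 passed at -0.59 (adjusted p = 0.0496). In that fit 4.86% of all genes were called higher and 12.5% lower.

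**Figure D5:**
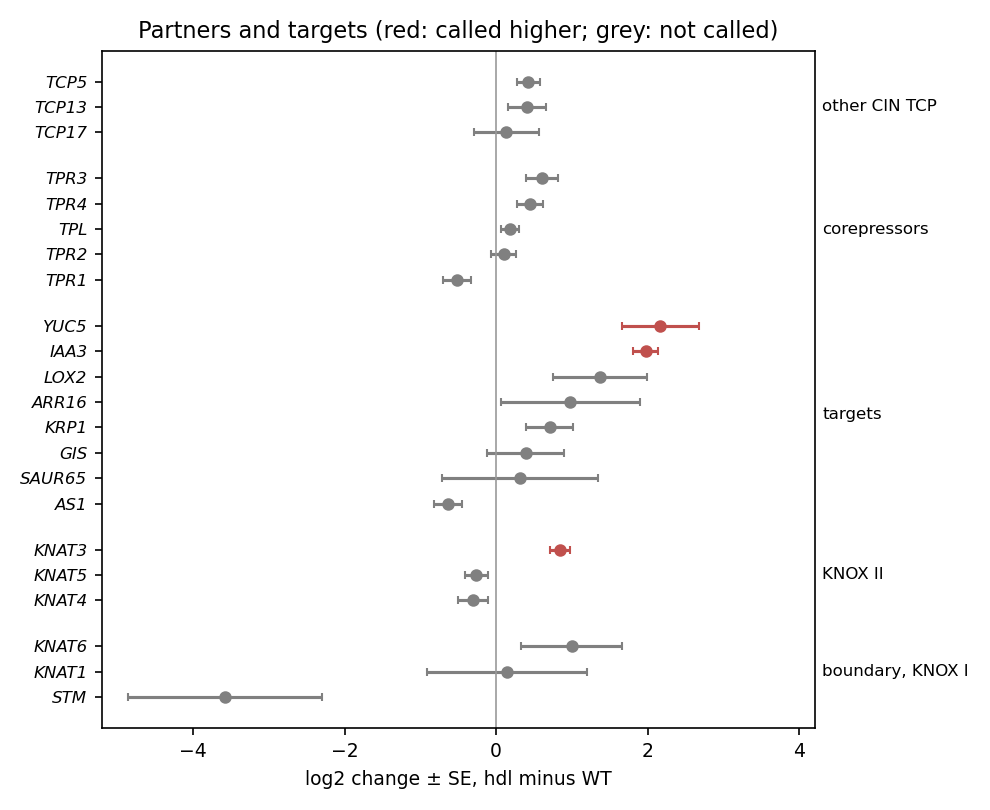
log2 change ± SE, hdl minus WT (x axis), of the tested partners and targets by list, with red for genes called higher by limma and grey for genes not called. YUC5, IAA3 and KNAT3 are the called genes, and STM has the widest error.

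Markers of cell types differed between the genotypes as well, where 8.21% of all genes rose and 4.5% fell. Summed over the 6 vascular markers, normalized counts ran from 20823 to 22580 in hdl, against 43338 to 69465 in WT, and 4 of the 6 fell, while SUC2 had a log2 change of 0.39 and overlapped. Summed over 5 epidermal markers they ran from 23869 to 27217 in hdl, against 13216 to 17223 in WT, and 3 rose (PDF2, FDH and CER5), while PDF1 had a log2 change of -0.21 and overlapped. ATML1, whose promoter drove the sorting reporter, was present in every library, at 3562 and 3522 normalized counts in hdl against 2549 to 4183 in WT. The 4 mesophyll markers summed to 661895 to 684988 normalized counts in hdl, against 445513 to 529228 in WT. By limma 1 of these rose, RBCS2B, which did not pass with equal totals (0.65, limma adjusted p = 0.0642). DESeq2 called 3 of the 4 higher, against 11.7% of all genes. LHCB1.3 had a limma log2 change of -0.13 and overlapped. The 3 guard cell markers summed to 321 to 409 in hdl against 385 to 612 in WT, with 1 falling (FAMA). MYB60 ran the other way, at 194 and 256 normalized counts in hdl against 120 to 168 in WT, and was not called. All 18 markers were above 0 in every library. The marker sums are as deposited, where the totals of all genes were also higher in hdl than in WT. The part of cell mix in the values of the 5 genes was not tested.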

How the data were processed

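The submitters' processing notes name TAIR10, Bowtie2 2.5.0, Trimmomatic 0.33, FastQC 0.11.9, DESeq2, SAMtools 1.16.1 and deepTools without their roles. The gene table deposited by the authors holds a signal per gene, which its title calls DESeq2-normalized. A second table, which lists none of the 5 genes, was not used here, and the level of HDL was not analysed here.

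Genotypes were compared in R 4.3.3 by limma 3.58.1 on log2(value + 1), with an intensity trend, no covariate, and genes with at least 10 in at least 2 libraries. P-values were adjusted by Benjamini-Hochberg over all genes tested. Values were whole multiples of 1 step per library for 100% of entries (tolerance 0.01), which recovers whole reads, and edgeR 4.0.16 and DESeq2 1.42.0 ran on them as alternatives, edgeR with 2470 calls and DESeq2 with 4523. The script was tested on simulated data. Further alternatives changed the pseudocount, filter, scaling, libraries, replicate block and gene set.

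Named are the 5 genes, genes under the filter and the gene nearest to each of the 5. Each list adds up to 4 called genes with the smallest p, or the 2 most abundant if none was called. Other genes named fall outside this rule. Some of them are marked in the text, while others, such as TCP9, TCP17, KNAT4 and KNAT5, are not. Gene models and sequences are from NCBI's TAIR10.1, which holds 24108 of the 24200 identifiers. The members and lists were chosen with earlier results of these data known.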

Additional observations from a re-analysis of the deposited data

How the results depend on the processing

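With libraries scaled to equal totals, TCP2 turned to -0.011, TCP10 passed at -0.59 and TCP24 at -0.94 on the log2 scale, while TPL turned to -0.14, OXP1 to -0.029 and AT4G22740 to -0.031, since that scaling lowers hdl values relative to WT. TCP24 also passed with DESeq2 at -0.63. Over fits that left out 1 library, the log2 change ran from -0.47 to 0.13 for TCP3, from -0.68 to -0.54 for TCP24, from -0.28 to -0.26 for TCP10, from 0.14 to 0.51 for TCP4 and from 0.23 to 0.42 for TCP2; AT4G10550 ran from -0.50 to 0.17, reversed without hdl replicate 2. The cause was not tested for the calls lost or gained. Over all genes, 994 were higher and 2553 lower with equal totals, against 1674 and 917 as deposited, and 2013 were lower with DESeq2. Leaving out 1 library gave 0 to 3574 genes higher and 0 to 2295 lower. Libraries share sample numbers 1 and 2 only in their labels, that is in titles, library names and column names. Deviations of same-numbered libraries correlated at 0.0048 and -0.012 across genes, so the numbers were not taken as pairs. With the replicate block 0 genes were higher and 0 lower (4529 at an unadjusted p under 0.05), with 1 residual degree of freedom. Depth limits TCP24 most in hdl, with 193 and 211 reads.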
